A study of Mus musculus with 2 samples.

Results

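This report describes 43 genes for the surface receptors with which macrophages bind antibody-coated particles, modified lipids, glycans and dying cells, together with complement genes, in mouse peritoneal macrophages. The genes were chosen by function, from a list of named receptors and complement genes. All probe sets annotated with exactly 1 of these symbols were taken, which gave 68 probe sets for 39 genes, of 18093 genes with a value on the arrays. Clec12a, C3, Fpr1 and Lilrb4 had no probe set annotated with that symbol alone and were not analysed here. For 38 of the 39 genes a signal was above the floor (defined with the units below) on 1 array or more, and for 35 on both, while Cd163, the receptor for haptoglobin-haemoglobin complexes, was at the floor on both.

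The macrophages came from the peritoneal cavity of C57BL/6J mice, taken 3 days after the mice received thioglycolate, which inflames the cavity and draws monocytes there from the blood. One array was made from cells given LPS+CPN and 1 from cells given LPS+CPN+GGOH. LPS is lipopolysaccharide, a bacterial activator of Toll-like receptor signalling, and both cultures received it. GGOH is geranylgeraniol, the alcohol of the lipid anchor that many small GTPases carry, and CPN is named in the labels by this abbreviation alone. The comparison asks which genes GGOH raises or lowers in cells that already have LPS and CPN. There was no culture without LPS or without CPN among the arrays used here. The sources used here do not give dose, duration, the age and sex of the animals, or whether cells of several animals were pooled.

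Fc receptors bind the constant part of antibodies. The activating ones pass the signal through a partner chain with an immunoreceptor tyrosine-based activation motif (ITAM), and the inhibitory Fcgr2b carries its own inhibitory motif (ITIM). Scavenger receptors take up oxidized lipoproteins and other polyanionic ligands, and C-type lectin receptors recognise glycans of microbes and of the body's own cells, several of them also through ITAM partners. C1q, the recognition subunit of the classical complement pathway, is made largely by macrophages.

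With 1 array a group there is no replicate, so no difference below has a test, a standard error or a p-value, and all values describe these arrays. Values are probe-set signal intensities in arbitrary units, with the same trimmed mean on both arrays. A floor of 59.9, the median of all signals, was used below which a signal was not taken as measured. The log2 ratio sets the array with GGOH over the array without it, so that 1 means 2-fold higher with GGOH. Probe sets of the same gene differed in log2 ratio with a pooled SD of 0.45 over 4166 genes and of 0.46 over the 14 receptor and complement genes with several, which is a scale of error within these arrays and not between cultures. Of the markers that define the labelled cell type, Adgre1 was at 11894 with LPS+CPN and 10632 with GGOH, Csf1r at 21459 and 15169.5 and Lyz2 at 38747 and 32153. The 3 probe sets of Csf1r ranged from -0.50 to 0.03. Of all 16 macrophage markers on the arrays, 11 were lower with GGOH and 5 were higher. The 5 were Itgam (log2 ratio 1.05), Coro1a (0.73), Aif1 (0.64), Lgmn (0.41) and Cd14 (0.38). All 16 macrophage markers on the arrays were above the floor on both, whereas the B cell, T and NK cell, mast cell and eosinophil markers were all at the floor on both. Markers of fibroblasts and mesothelial cells differed, with a summed signal of 1655 with LPS+CPN and 30971 with GGOH over 18 genes. Of these, 14 were at the floor with LPS+CPN and 2 with GGOH, and 14 of 16 measured ones were at least 2-fold higher, with 5.50% of all measured genes. The ratio of 5' to 3' signal also differed, at 0.41 and 0.80 for Actb and at 0.50 and 1.05 for Gapdh. In whole cultures, fewer cells of a type and less RNA per cell cannot be told apart.

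As a group these genes were spread about as widely as all measured genes. Of the 38 measured genes, 19 had a higher signal with GGOH and 19 a lower one, and 48.6% of all 11518 measured genes were higher. The 38 include 3 genes above the floor on 1 array only (Clec10a, Cd209a and Trem1), and all genes were counted in the same way. Their median log2 ratio was -0.0048, with quartiles at -0.34 and 0.29, against a median of -0.01 and quartiles of -0.28 and 0.29 for all measured genes. Between log2 ratios of -0.5 and 0.5 lay 25 of the 38. A log2 ratio of at least 0.5 was found for 7 of them (18.4%, with 14.9% of all genes), and one of at most -0.5 for 6 (15.8%, with 11.0% of all genes). The 2-fold line was passed upward by 4 genes (10.5%, with 5.50% of all genes) and downward by none, with 1.66% of all genes. The 4 were Olr1, Mrc1, Clec4a2 and Stab1.

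**Figure D1:**
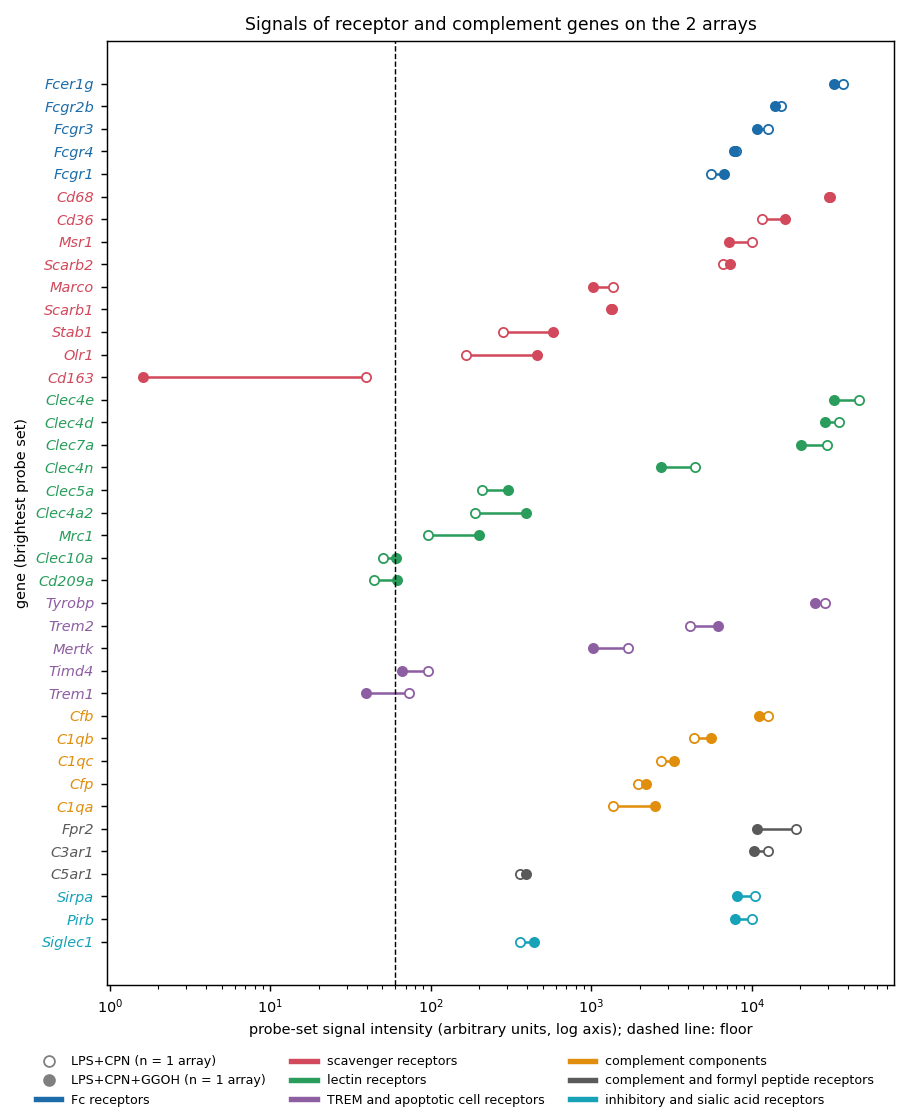
Signal intensity (log axis) of the brightest probe set of 39 receptor and complement genes with LPS+CPN (open circles) and LPS+CPN+GGOH (filled circles), 1 array each, grouped by role; the dashed line is the floor of 59.9. For most genes the circles lie close together, and among genes above the floor on both arrays the widest gaps are those of Olr1, Mrc1, Clec4a2 and Stab1, all toward higher signal with GGOH.

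Olr1, the lectin-like receptor for oxidized low-density lipoprotein, had a signal of 165 with LPS+CPN and 456 with GGOH, a log2 ratio of 1.47 or 2.77-fold. Mrc1, the mannose receptor and a usual marker of alternative activation, was at 95.6 and 199.5 (log2 ratio 1.06). Clec4a2, a C-type lectin with an inhibitory motif, was at 190 and 389 (1.04). Its other probe set was at 68.0 and 104 (0.61), so both of its probe sets were higher. Stab1, stabilin, a scavenger receptor that takes up matrix and modified lipoprotein fragments, was at 283 and 578 (1.03). Olr1, Mrc1 and Stab1 had 1 probe set each. The signals of all 4 were at most 578 on both arrays, a range where ratios of all genes also spread more. Of the 5579 genes with a mean signal under 500, 9.97% were at least 2-fold higher, and of the 11 receptor and complement genes there, 4 were. Of the 4, Olr1 was past 2-fold under all 4 other scalings (1.27 to 1.71), while Mrc1 (0.80 to 0.94), Clec4a2 (0.84 to 0.94) and Stab1 (0.87 to 0.96) fell short with arrays divided by their medians, with quantile normalization and with lowess.

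Olr1, Mrc1 and Stab1 are also known from endothelium. Of 6 endothelial markers, 5 (Pecam1, Cdh5, Tie1, Cldn5 and Emcn) were at the floor on both arrays, and Kdr was at 98.0 and 96.3. Fibroblast and mesothelial markers and the 5' to 3' ratios also differed between the arrays, as given above, and their part in these 4 differences was not tested.

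The promoters of the 4 higher genes and of the 2 genes with the lowest log2 ratio (Fpr2 and Mertk) are shown because these genes carry the largest differences of the group in each direction. Each run is the 250 bases before the annotated start, from RefSeq on build GRCm38.p6, 5′ to 3′ on the strand of the gene. Capitals mark matches on either strand to any of 4 motifs: TGANTCA (AP-1), AGGAAGT (PU.1 and other ETS factors), TTCNNNGAA (STAT) and TATAAA (the TATA box).

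Olr1 (chr6:129507166-129507415, minus strand): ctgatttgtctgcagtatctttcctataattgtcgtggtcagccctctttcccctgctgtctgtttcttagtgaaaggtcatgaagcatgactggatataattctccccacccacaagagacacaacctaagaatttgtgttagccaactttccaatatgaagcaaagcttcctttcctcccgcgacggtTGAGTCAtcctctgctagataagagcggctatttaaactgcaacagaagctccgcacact
Mrc1 (chr2:14229164-14229413, plus strand): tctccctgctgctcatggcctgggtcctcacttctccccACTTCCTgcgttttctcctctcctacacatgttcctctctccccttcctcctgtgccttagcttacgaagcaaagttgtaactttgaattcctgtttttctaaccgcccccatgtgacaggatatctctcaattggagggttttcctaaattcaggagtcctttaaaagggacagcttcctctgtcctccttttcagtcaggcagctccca
Clec4a2 (chr6:123122440-123122689, plus strand): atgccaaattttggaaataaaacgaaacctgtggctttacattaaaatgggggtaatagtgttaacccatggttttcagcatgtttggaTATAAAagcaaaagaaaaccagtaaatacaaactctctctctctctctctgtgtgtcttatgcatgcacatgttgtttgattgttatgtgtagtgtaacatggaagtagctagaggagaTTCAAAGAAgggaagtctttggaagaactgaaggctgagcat
Stab1 (chr14:31168642-31168891, minus strand): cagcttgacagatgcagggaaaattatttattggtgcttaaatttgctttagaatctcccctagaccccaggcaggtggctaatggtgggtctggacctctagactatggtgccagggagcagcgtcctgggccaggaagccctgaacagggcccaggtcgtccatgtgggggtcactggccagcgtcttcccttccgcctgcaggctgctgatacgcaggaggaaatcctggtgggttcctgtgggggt
Fpr2 (chr17:17887574-17887823, plus strand): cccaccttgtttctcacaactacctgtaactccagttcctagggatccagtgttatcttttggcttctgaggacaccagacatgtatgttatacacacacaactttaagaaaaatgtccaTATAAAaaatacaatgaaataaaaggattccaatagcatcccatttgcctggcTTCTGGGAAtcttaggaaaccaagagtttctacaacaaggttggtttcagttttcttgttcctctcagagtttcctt
Mertk (chr2:128698665-128698914, plus strand): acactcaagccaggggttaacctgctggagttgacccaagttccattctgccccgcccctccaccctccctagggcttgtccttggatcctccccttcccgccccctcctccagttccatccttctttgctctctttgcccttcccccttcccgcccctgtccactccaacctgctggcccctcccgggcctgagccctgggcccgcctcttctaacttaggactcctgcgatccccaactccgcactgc

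The Olr1 run held 1 AP-1 match, 60 to 54 bases before the start. The Mrc1 run held 1 ETS match, on the opposite strand, 211 to 205 bases before it. Clec4a2 and Fpr2, on opposite sides of 0, had the same pair of motifs. Clec4a2 had a STAT match at 42 to 34 bases and a TATAAA at 161 to 156 bases, and Fpr2 a STAT match at 77 to 69 bases and a TATAAA at 130 to 125 bases. The Stab1 and Mertk runs held none of the 4 motifs, which says only that these letters are not in this window. None of the matches overlapped. Among all 32851 promoter runs of this length in the table, 6.75% held the AP-1 motif, 7.69% the ETS motif, 7.02% the STAT motif and 12.4% TATAAA. Of 35 runs for 33 of the 43 receptor and complement genes, 5 held the AP-1 motif, 8 the ETS motif, 4 the STAT motif and 7 TATAAA. The ETS matches were in C1qb, C1qc, C5ar1, Fcgr1, Fcgr4, Mrc1, Pirb and Trem1, genes whose log2 ratios ran in both directions.

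The Fc receptors lay close to 0. Their 5 log2 ratios were between -0.22 and 0.28, and none passed 2-fold. Fcgr1, the high-affinity receptor for IgG, was at 5562 with LPS+CPN and 6735 with GGOH (0.28), and its other probe set gave 0.27. The other activating receptors gave values on the other side of 0. Fcgr3 was at 12563 and 10761 (-0.22) and Fcgr4 at 7949 and 7795 (-0.03). The inhibitory receptor Fcgr2b was at 15224 and 14026 (-0.12), and its 4 measured probe sets ranged from -0.24 to 0.28. Fcer1g, the ITAM-bearing gamma chain that all the activating receptors use, was at 37066 and 32467 (-0.19). The median of the 5 was -0.12, and it turned to 0.02 with quantile normalization, 0.01 with lowess and 0.12 under equal macrophage markers, a scaling that puts the median ratio of 16 such markers at 0. The inhibitory gene lay within the range of the activating ones. Fcgr2b, Fcgr4 and Fcgr3 lie next to each other on chromosome 1.

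Among the scavenger receptors, the genes with the larger signals went both ways. Msr1, the class A receptor for acetylated lipoprotein, was at 10049 with LPS+CPN and 7238 with GGOH (-0.47), with 3 of its 4 probe sets lower (-0.64 to 0.13). Cd36, a receptor for oxidized lipids and long-chain fatty acids, was at 11552 and 16030 (0.47), with all 3 probe sets higher (0.03 to 0.47). Both keep their sign in all 9 other ways of processing (-0.64 to -0.23 for Msr1 and 0.31 to 0.71 for Cd36). Marco, another class A receptor, was at 1357 and 1021 (-0.41), but its dimmer probe set gave 0.76. Scarb1, the receptor for high-density lipoprotein, was at 1327 and 1350.3 (0.02), and Scarb2, a lysosomal membrane protein of the same family, at 6608 and 7325 (0.15). Cd68, a lysosomal glycoprotein and macrophage marker, was at 30430.1 and 30828 (0.02). Cd163 was at 39.5 and 1.6, both under the floor, so it has no ratio. With Olr1 and Stab1, the 8 measured scavenger receptors had a median of 0.09, but -0.08 after division of each array by its median signal.

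Of the 9 C-type lectins measured, 7 were above the floor on both arrays, while Clec10a and Cd209a had only a bound. With these bounds counted as higher, 5 were higher and 4 lower with GGOH. The median of 0.02 was the bound of Clec10a and thus shows no direction. Division by medians and quantile normalization put Clec10a and Cd209a at the floor on both arrays, and the median of the other 7 was then -0.47 and -0.06. Clec4e (Mincle), a receptor for the mycobacterial cord factor, was at 46309 with LPS+CPN and 32702 with GGOH (-0.50), and both probe sets were lower. Clec4d, its partner in binding that glycolipid, was at 35106 and 28520.3 (-0.30). Clec4n (Dectin-2), a receptor for fungal mannans, was at 4447 and 2700.2 (-0.72), while its dimmer probe set gave 0.02. Clec7a (Dectin-1), the receptor for fungal beta-glucan, was at 29369 and 20215 (-0.54). Clec4e, Clec4d, Clec4n and Clec7a had a negative ratio in every one of the 9 other ways of processing, with a highest value of -0.06 for Clec4d under equal macrophage markers. At these signals a change of the floor or a pseudocount leaves a ratio the same or nearly so. For Clec4d and Clec7a, with 1 probe set each, only the 4 other scalings could thus move it. None of these lectins reached 2-fold. Clec5a, a receptor for viral glycans that signals through Tyrobp, was at 207.5 and 303 (0.55) from its 1 probe set. Clec10a, the macrophage galactose lectin, was at 50.1 and 60.8, and Cd209a, a DC-SIGN relative of dendritic cells, at 44.4 and 61.2. Both were above the floor with GGOH alone and by little, so they give no usable ratio.

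Some neighbouring genes had ratios of opposite sign. Clec4a2 lies in the same cluster on chromosome 6 as Clec4n, Clec4d and Clec4e, with 1 protein-coding gene between it and Clec4n, and had a log2 ratio of 1.04 where the other 3 had -0.72, -0.30 and -0.50. Clec7a and Olr1 are adjacent genes of the Dectin cluster on the same chromosome, and had -0.54 and 1.47. In both cases the higher gene had the smaller signal, and the ratio varied with the signal in all genes, as given below. With lowess on the signal, Clec4a2 was at 0.94 and Clec4n, Clec4d and Clec4e at -0.665, -0.12 and -0.31. Olr1 was then at 1.37 and Clec7a at -0.38. Whether the genes of a cluster are regulated apart was not tested.

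Among the TREM family and the receptors for apoptotic cells, Trem2, a lipid-sensing receptor, was at 4093 with LPS+CPN and 6150.4 with GGOH (0.59). Its partner Tyrobp (DAP12), the ITAM adaptor shared by TREM receptors and Clec5a, was at 28712 and 24755 (-0.21). The receptor and its adaptor thus lay on opposite sides of 0, in all but the scaling to equal macrophage markers, where Tyrobp was at 0.03. Mertk, the kinase receptor through which macrophages clear apoptotic cells, was at 1690.5 and 1023 (-0.73), a 1.65-fold lower signal from 1 probe set, and its ratio lay between -0.89 and -0.49 in the other ways of processing. Timd4 (Tim-4), a phosphatidylserine receptor of resident macrophages, was at 96.0 and 66.5 (-0.53), close to the floor. Trem1, which amplifies Toll-like receptor signals, was at 73.1 and 39.5, so that it was at least 1.22-fold lower, and its other probe set was at the floor on both arrays. The median of the 5 was -0.29 and kept its sign under all scalings. It was the bound of Trem1 and thus depended on the floor. With the floor at the 25th percentile it was -0.53, and at the 75th, with 3 genes measured, -0.21.

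The 3 C1q chains were all higher with GGOH. C1qa was at 1368 with LPS+CPN and 2495 with GGOH, a log2 ratio of 0.87 and the largest difference of the group among genes with a mean signal above 500. C1qb was at 4381 and 5610.0 (0.36), and its other 2 probe sets, both of the _x_at class, gave 0.26 and 0.29. C1qc was at 2737 and 3279 (0.26). All 5 probe sets of the 3 genes were thus higher, and none of the genes reached 2-fold at the deposited scaling. In the 9 other ways of processing the values stayed above 0, at 0.70 to 1.11 for C1qa, 0.19 to 0.60 for C1qb and 0.09 to 0.50 for C1qc, and C1qa passed 2-fold under equal macrophage markers. The 3 genes are adjacent on chromosome 4. The alternative pathway genes lay near 0. Cfb, factor B, was at 12596 and 11113.5 (-0.18), and Cfp, properdin, at 1943 and 2201 (0.18), with its dimmer probe set at 0.09.

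Of the receptors for complement fragments and formyl peptides, Fpr2 stood lowest of all 38 measured genes. Fpr2, a receptor for bacterial and mitochondrial formyl peptides and for other inflammatory ligands, was at 18823 with LPS+CPN and 10754 with GGOH, a log2 ratio of -0.81 or 1.75-fold lower. The value comes from 1 probe set and lay between -0.97 and -0.57 in the other ways of processing, so it passed 2-fold in none. C3ar1, the receptor for the anaphylatoxin cut from C3, was at 12705 and 10320.1 (-0.30), with its 3 probe sets between -0.30 and 0.28. C5ar1, the receptor for the fragment cut from C5, was at 358 and 389 (0.12), and its dimmer probe set gave 0.37. Fpr2 is also a gene of neutrophils. Of 11 neutrophil markers on the arrays, S100a8 was at 4282 and 2216 (-0.95), Csf3r at 748 and 854.5 (0.19) and Mmp9 at 96.1 and 679 (2.82). Mmp8 was at 62.7 and 135.9 (1.12), while Ngp (75.4 and 51.5) and Elane (67.7 and 47.1) were above the floor with LPS+CPN alone. The other 5 (S100a9, Camp, Ltf, Cxcr2 and Mpo) were at the floor on both. The summed signal of the list was 5496 with LPS+CPN and 4088 with GGOH. The part of neutrophils in the Fpr2 value was not tested.

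Of the 3 measured genes grouped as inhibitory and sialic acid receptors, 2 were lower with GGOH and 1 higher. Pirb, an ITIM receptor for MHC class I, was at 10049.9 with LPS+CPN and 7864 with GGOH (-0.35). Sirpa, which receives the signal of CD47 that restrains phagocytosis, was at 10409 and 8081 (-0.37), with 1 of its 3 probe sets higher (0.48). Its ligand gene Cd47 was at 12724 and 10858 (-0.23), with its 4 probe sets from -0.67 to 0.06. Siglec1 (sialoadhesin), an interferon-inducible receptor for sialic acid, was at 360 and 441 (0.30) by its brightest probe set, but its others gave -0.70 and 1.33. No direction can be read for Siglec1, whose 3 probe sets spanned more than those of any other gene of the group.

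**Figure D2:**
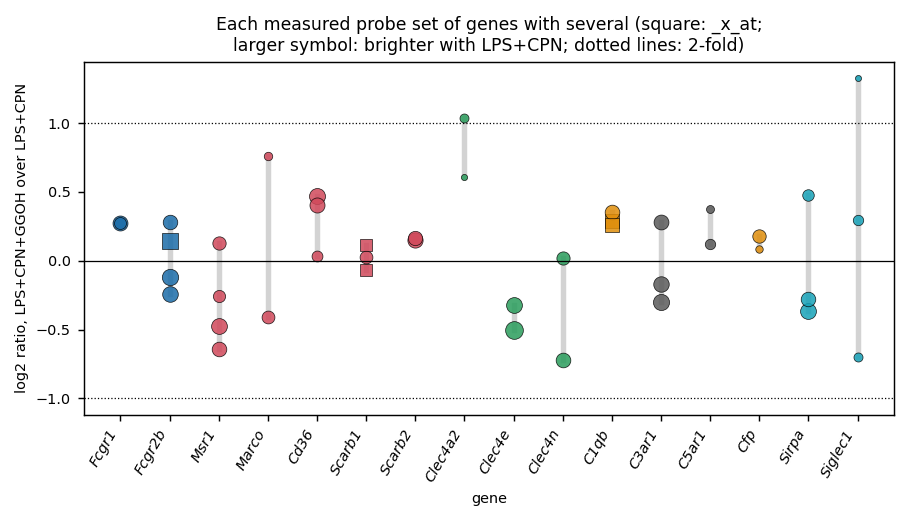
Log2 ratio (LPS+CPN+GGOH over LPS+CPN) of every measured probe set of the 16 receptor and complement genes with several; symbols grow with the LPS+CPN signal, squares are _x_at probe sets and dotted lines mark 2-fold. Probe sets agree closely for Fcgr1, Scarb2 and C1qb, and Siglec1 (-0.70 to 1.33) and Marco (-0.41 to 0.76) spread most.

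Of the 16 genes with several measured probe sets, 8 had 1 sign in all of them and 8 had both. For 14 of them the probe sets could be ordered by signal with _x_at probe sets left out. The dimmest gave a higher log2 ratio than the brightest in 10 of 14 (71.4%, and 60.6% of 4166 genes in all). Of 7 such genes whose brightest probe set was lower with GGOH, 5 had a dimmest probe set that was higher (71.4%, and 53.3% of 2348 genes in all). They were Fcgr2b, Marco, Clec4n, C3ar1 and Sirpa.

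The same order ran through the genes themselves. Among 19 genes with a mean signal of 5000 or more, 14 were lower with GGOH and 5 higher, with a median of -0.21, and of the 993 genes of that signal range on the arrays 31.4% were higher, with a median of -0.15. Among 11 with a mean signal under 500, 9 were higher, with a median of 0.30, and of the 5579 such genes in all 56.8% were higher, with a median of 0.09. Clec10a and Cd209a, each with only a bound, are counted among the 9. In the range between, 5 of 8 were higher, with a median of 0.10 (42.9% of 4946 genes in all, median -0.06). The ratio thus varied with the signal in these genes as in all genes, and signals of different probe sets are not levels that can be compared. With a lowess of the ratio on the signal of all genes, 21 of the 38 genes were higher and 17 lower, and Fpr2, Clec4n, Mertk and Clec7a were still lower.

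**Figure D3:**
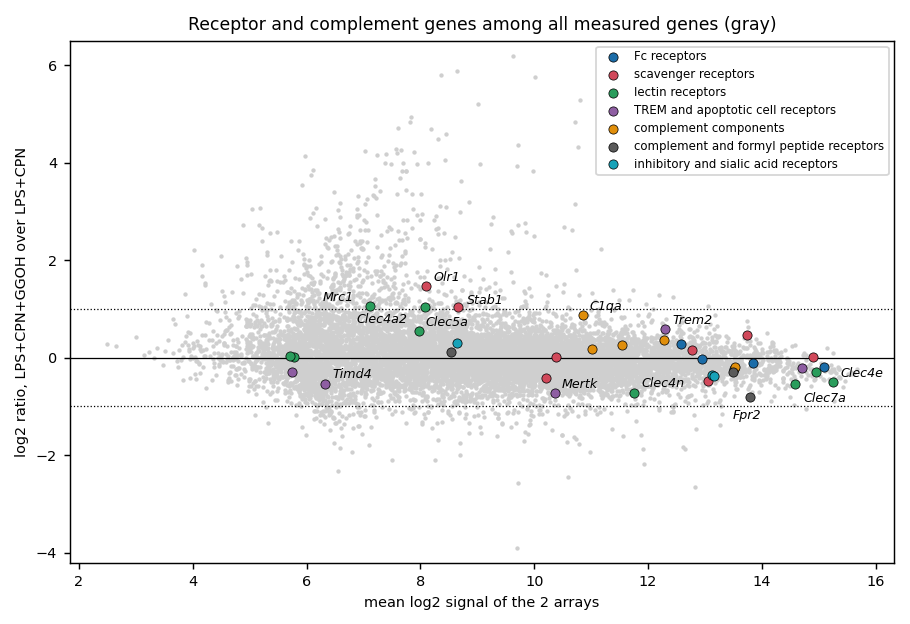
Log2 ratio against mean log2 signal of the 2 arrays for 38 measured receptor and complement genes (coloured by role, named from 0.5 in either direction) over all 11518 measured genes (gray); dotted lines mark 2-fold. Genes to the right lie mostly below 0 (14 of 19 with a mean signal of 5000 or more), and the 4 above 2-fold lie to the left.

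Downstream of the ITAM and ITIM receptors, most signalling genes had a lower signal with GGOH. Of 27 on the arrays, 21 had a lower and 6 a higher signal with GGOH, with a median of -0.36, and 48.6% of all genes were higher. Most of the 27 had a mean signal above 500. Of all genes from 500 to 5000, 42.9% were higher, and of those at 5000 or more, 31.4%. With the median over probe sets 19 were lower and 8 higher, with a median of -0.25. Several genes, among them Malt1, Cbl and Skap2, had probe sets of both signs. The median of the list as reported kept its sign under all scalings, from -0.53 with arrays divided by their medians to -0.12 under equal macrophage markers. Syk, the kinase that docks on phosphorylated ITAMs, was at 6539 and 4113.5 (-0.67), although its 4 probe sets ranged from -0.67 to 0.66. Hcst (DAP10), an adaptor that recruits PI3-kinase, was at 1887 and 1139.5 (-0.73), and Inpp5d (SHIP), the phosphatase recruited by Fcgr2b, at 1753 and 1092.0 (-0.68). The other probe set of Inpp5d gave 0.29, on the other side of 0. At least 2-fold higher were 5.50% of all genes and 1 gene of this list. It was Vav3, at 324 and 704 (1.12), with its 3 probe sets from 0.28 to 1.12. That call was lost with arrays divided by their medians, with the floor at the 75th percentile, with a pseudocount and with the median over probe sets. Of the 16 macrophage markers, 11 were lower too and 5 were higher (median -0.24).

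Among 24 other phagocytic receptors and bridging molecules, 21 were measured and 2 were at least 2-fold higher. Thbs1, thrombospondin, a secreted bridge between CD36 and apoptotic cells that fibroblasts also make, was at 655 and 4045 (2.63, both probe sets higher). Itgam, the alpha chain of complement receptor CR3, was at 312 and 646 (1.05) and its partner chain Itgb2 at 28714 and 21103 (-0.44). Here too the higher gene had the smaller signal. Axl, a kinase receptor related to Mertk, was at 1448 and 2189.6 (0.60), on the other side of 0 from Mertk, and their bridging ligand Gas6 at 165 and 224 (0.44). Of 21 other lectin, TREM and paired receptors measured, Cd33, a receptor for sialic acid, was the 1 past 2-fold. It was at 1547 and 594 (-1.38, 2.60-fold lower, 1 probe set), and 1.66% of all genes were at least 2-fold lower. Under each of the other scalings 1 gene of that list was at least 2-fold lower.

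Of 13 other complement genes measured, 10 had a higher signal with GGOH, with 48.6% of all genes. At least 2-fold higher were 4, with 5.50% of all genes, and none was 2-fold lower, with a median of 0.79 that kept its sign under all scalings. Of all genes with a mean signal under 500, where most of these genes lay, 56.8% were higher and 9.97% at least 2-fold higher. The count at least 2-fold higher was 3 with arrays divided by their medians, with quantile normalization, with lowess and with a pseudocount. It was 7 under equal macrophage markers. With the floor at the 75th percentile 9 were measured, 1 of them at least 2-fold higher. With the floor at the 25th percentile 20 were measured, 5 of them at least 2-fold higher and 4 lower, with a median of 0.17. C1s1, a protease of the C1 complex that C1q activates, was at 31.2 and 575, at least 9.60-fold higher. Serping1, the inhibitor of that protease, was at 124 and 780 (2.65), and Clu, clusterin, a fluid-phase inhibitor of the membrane attack complex, at 77.2 and 334 (2.11). The fourth was Itgam. C1s1, Serping1 and Clu are also made by fibroblasts and mesothelial cells, whose markers were higher on the same array (Col1a2 at 287 and 11165, Dcn at 565 and 5043, Wt1 at 17.1 and 540.1). The part of those cells in the values was not tested.

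**Figure D4:**
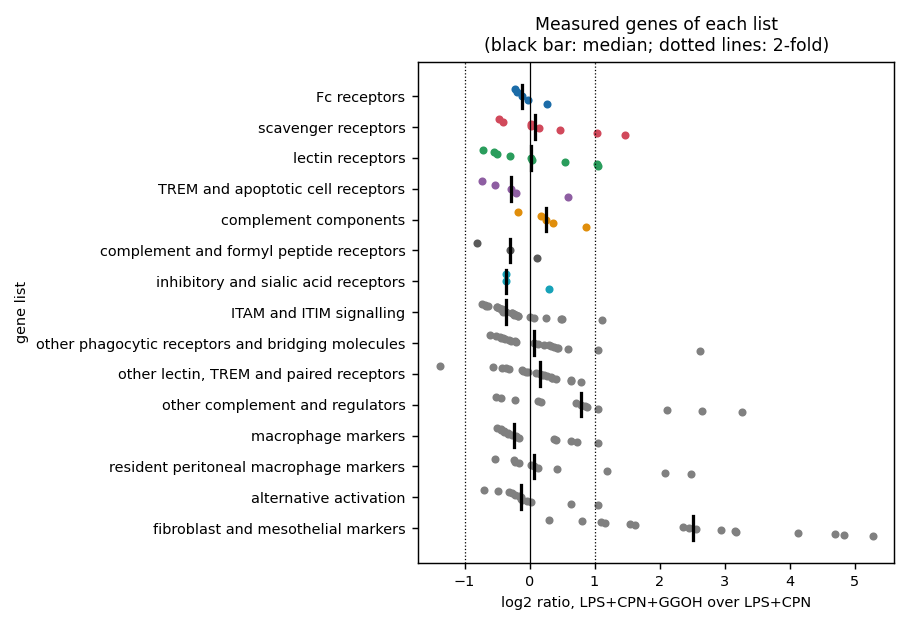
Log2 ratio (LPS+CPN+GGOH over LPS+CPN) of each measured gene, by list: the 7 role groups in colour, other lists in gray; black bars are medians and dotted lines mark 2-fold. The role groups have medians between -0.35 and 0.26, the ITAM and ITIM signalling genes -0.36, other complement genes 0.79 and fibroblast and mesothelial markers 2.51.

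Mrc1, Clec10a and Cd163 are common markers of alternative activation. Of 17 genes of that list, 13 were measured, 10 lower and 3 higher with GGOH, but 4 lower and 9 higher under equal macrophage markers. Of all measured genes, 48.6% were higher and 5.50% at least 2-fold higher. The 3 higher as reported were Mrc1, the 1 past 2-fold, Arg1 and Clec10a. Clec10a, and Ccl22 among the lower genes, were above the floor on 1 array only, and Clec10a gave no usable ratio. Arg1, arginase, was at 6113 and 9541 (0.64), Il4ra, the interleukin receptor that starts the programme, at 1436 and 1024 (-0.49), and Retnla, a secreted marker of it, at 110.3 and 98.3 (-0.17). The other probe set of Il4ra gave 0.21. The median of the list was -0.13 and turned to 0.11 under equal macrophage markers. Among markers of resident peritoneal macrophages, 11 of 16 were measured, 7 higher and 4 lower with GGOH. F10 had the highest signal (8913 and 7610.3, -0.23). Cd93 was at 2104 and 2825 (0.43), with its 4 probe sets from -0.12 to 0.59. Timd4 and Vsig4 (26.5 and 62.9) were near the floor. Gata6 (99.1 and 420, 2.08), Cxcl13 (164 and 919, 2.48) and Tgfb2 (32.4 and 137, at least 2.29-fold) were at least 2-fold higher, with 5.50% of all genes. Mesothelial cells are also known to express Gata6.

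**Figure D5:**
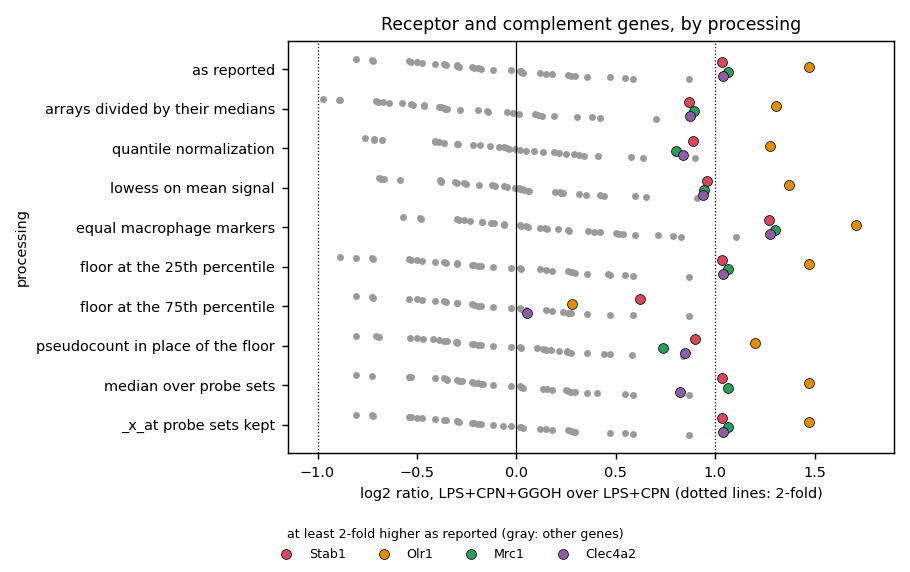
Log2 ratio of the 38 receptor and complement genes measured as reported (Cd163 is not drawn), as reported and under 9 other ways of processing (rows); the 4 genes at least 2-fold higher as reported are coloured, the others gray, and dotted lines mark 2-fold. Olr1 stays right of the line in all rows but the floor at the 75th percentile (0.28), no gray point passes 2-fold downward, and 1 (C1qa) does so upward under equal macrophage markers.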

How the data were processed

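Signals of 45101 probe sets were analysed on 1 array for LPS+CPN and 1 for LPS+CPN+GGOH. The deposited values are signal intensity on a linear scale. The submitters' processing notes name MAS5; for its version, scaling target and detection calls, nothing is stated in the labels. The deposited intensity values already shared a trimmed mean.

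Probe sets were named with the platform annotation (34945 with 1 symbol, 932 with several, 9160 with none listed), and the gene identifiers of 34741 were found in RefSeq (GRCm38.p6). Each gene took its probe set of highest mean log2 signal, with 64 control and 2038 _x_at probe sets left out. Signals were floored at the pooled 50th percentile (59.9). A gene above the floor on 1 array has only a bound, written "at least". Differences were counted at 2-fold, with no test. The 9 other ways of processing are named in the closing section; the scaling to equal macrophage markers used 16 genes. For each named list, the genes past 2-fold (up to 6), or otherwise those with the largest ratio, were to be named; some others are named after their values were seen. Members and lists were chosen with earlier results of these data known. Steps were tested on simulated data, with changes past 2-fold put only into genes of higher signal. The simulated noise was smaller than the spread between probe sets of a gene. Calls near 2-fold at low signal were thus not tested. Python 3.11.15, pandas 2.3.3, numpy 2.4.6 and statsmodels 0.14.6 were used. The number of arrays limits the precision.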

Additional observations from a re-analysis of the deposited data

How the results depend on the processing

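The median log2 ratio of the measured genes lay between -0.24 and 0.15 over the 9 alternatives, with 32 to 39 genes measured. The number at least 2-fold higher was 4 as reported. It was 1 (Olr1) with arrays divided by their medians, with quantile normalization, with lowess and with a pseudocount in place of the floor, and 0 when the floor was set at the 75th percentile, which leaves 32 genes measured. It was 5 under equal macrophage markers, 3 with the median over probe sets, and 4 with _x_at probe sets kept or a floor set at the 25th percentile. None was at least 2-fold lower, except 1 (Cd163) with the floor at the 25th percentile. Dividing by medians moved the median of all genes by -0.16, and equal macrophage markers by 0.23. Of 332 values of single genes, 328 moved by less than the pooled SD of probe sets within genes (0.45) and 4 by more: Marco with the median over probe sets (0.18), Trem1 with the floor at the 25th percentile (-0.89), and Olr1 (0.28) and Clec4a2 (0.05) with it at the 75th. The count of 328 says little about single genes. Division by medians and equal macrophage markers each shift genes above the floor by 1 amount under that SD. Changes of the floor, a pseudocount and kept _x_at probe sets leave most genes of high signal the same or nearly so. Of the 38 genes, 27 kept 1 sign in every alternative that measured them (15 higher, 12 lower) and 11 did not. Clec10a and Cd209a among the 15 and Trem1 among the 12 had only a bound as reported. With 1 array a group, no replicate could be left out. Signals near the floor cannot be told from background.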
